A study of Mus musculus with 6 samples.

Results

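Regions of open chromatin at 9 genes of interferon sensing and response were described in sorted mouse hematopoietic stem cells. The genes were Ifnar1, Ifnar2, Ifngr1, Stat2, Irf9, Irf1, Irf2, Irf7 and Isg15, taken by symbol with their mm10 coordinates, and all 9 were found in the annotation. Every merged peak region that overlapped one of them or the 10 kb on either side was kept, which gave 49 of the 84592 regions of the whole series. The assay was ATAC-seq, where Tn5 transposase inserts sequencing adapters into open DNA. The 6 libraries fall into 2 groups of 3 by their labels, although the series text speaks of duplicates. The 3 Dek_cKO libraries came from mice with loxP-flanked Dek on both alleles (Dekfl/fl) plus Tie2-Cre, and the 3 Dek_fl libraries from Dekfl/fl mice with no Cre in the label, so all animals carried the floxed alleles. All were C57BL/6 mice of 12 weeks, given as 3 months in another label, under homeostatic conditions. About 20000 bone marrow cells per preparation were sorted as Lin-Sca-1+c-Kit+CD48-CD150+. Dek encodes a chromatin-bound nuclear protein. Tie2-Cre is driven by control DNA of Tek (Tie2) and is active in endothelial as well as blood cells, so the loss of Dek is not limited to stem cells. The labels do not say which part of Dek was floxed, nor whether the libraries of a group were made from different animals. The p-values below therefore measure the spread between libraries, which may be technical.

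Type I interferons bind the receptor pair Ifnar1 and Ifnar2, whose kinases Tyk2 and Jak1 phosphorylate Stat2. With Irf9, Stat2 is part of a complex that binds the interferon-stimulated response element (ISRE). Interferon gamma binds Ifngr1 with Ifngr2 and acts on genes with the gamma-activated site (GAS). In mouse bone marrow, interferon drives resting stem cells into the cell cycle, and Irf2, which competes with activating interferon regulatory factors, keeps mouse stem cells from exhaustion under chronic interferon signalling.

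The ISRE and GAS cores in the sequence at the gene starts are shown first, to place them against the peaks described below. The windows are RefSeq GRCm38.p6 sequence from 250 bases before to 50 after an annotated start, on the strand of the gene, 5′ to 3′. They are printed for the 3 members with an ISRE core and for Irf1, whose GAS core lay within 90 bp of every summit. Capitals mark the matches, and overlapping matches run together.
Isg15 (chr4:156200769-156201068, minus strand): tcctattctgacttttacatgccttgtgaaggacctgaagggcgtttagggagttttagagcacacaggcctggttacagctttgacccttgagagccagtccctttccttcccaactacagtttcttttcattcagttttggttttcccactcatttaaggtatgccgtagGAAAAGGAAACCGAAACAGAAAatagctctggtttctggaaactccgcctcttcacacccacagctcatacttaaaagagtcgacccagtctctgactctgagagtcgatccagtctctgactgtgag
Stat2 (chr10:128270248-128270547, plus strand): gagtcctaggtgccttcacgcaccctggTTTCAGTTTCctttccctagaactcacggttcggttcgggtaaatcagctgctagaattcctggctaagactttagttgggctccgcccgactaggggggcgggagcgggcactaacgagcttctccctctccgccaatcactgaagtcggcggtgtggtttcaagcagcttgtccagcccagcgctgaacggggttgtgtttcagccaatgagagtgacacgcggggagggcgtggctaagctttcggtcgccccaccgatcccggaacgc
Irf2 (chr8:46739495-46739794, plus strand): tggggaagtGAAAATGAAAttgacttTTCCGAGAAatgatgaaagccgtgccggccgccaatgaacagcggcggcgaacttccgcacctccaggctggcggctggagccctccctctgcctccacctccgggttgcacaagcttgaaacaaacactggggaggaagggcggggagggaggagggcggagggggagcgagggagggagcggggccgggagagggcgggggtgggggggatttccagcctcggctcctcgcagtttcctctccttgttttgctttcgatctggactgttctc
Irf1 (chr11:53769764-53770063, plus strand): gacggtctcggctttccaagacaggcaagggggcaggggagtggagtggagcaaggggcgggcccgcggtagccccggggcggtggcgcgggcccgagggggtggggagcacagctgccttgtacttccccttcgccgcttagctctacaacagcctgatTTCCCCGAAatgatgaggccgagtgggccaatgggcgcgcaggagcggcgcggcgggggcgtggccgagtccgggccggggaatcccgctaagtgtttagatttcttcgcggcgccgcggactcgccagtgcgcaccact

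The letters searched on both strands were GAAANNGAAA for the ISRE core and TTCNNNGAA for the GAS core. The ISRE core occurred in 3.44% and the GAS core in 8.30% of 32851 such windows of all genes. The 9 genes have 11 annotated starts, of which 3 held an ISRE core and 4 a GAS core. Isg15, an interferon-induced ubiquitin-like protein, had 3 overlapping ISRE cores on its own strand, GAAAAGGAAA at bases -78 to -69 from the start, GAAACCGAAA at -72 to -63 and GAAACAGAAA at -66 to -57. Stat2, the partner of Irf9, had 1 ISRE core on the reverse strand, printed as TTTCAGTTTC at -222 to -213. Irf2 had the ISRE core GAAAATGAAA at -241 to -232 and the GAS core TTCCGAGAA at -224 to -216. Irf1, itself an interferon-induced activator, had the GAS core TTCCCCGAA at -90 to -82. The remaining GAS cores were TTCACGGAA at -5 to 3 of Ifnar1 and TTCCTGGAA at -214 to -206 of Ifnar2. The windows of Irf7, Irf9 and Ifngr1, and the second start of Irf1, held neither. A match is a stretch of letters and not a measured binding site.

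The deposited lists held 70756, 73173 and 27170 peaks in Dek_cKO replicates 1, 2 and 3, and 52451, 71555 and 23813 in Dek_fl replicates 1, 2 and 3. Read depth is unknown from the lists, and a region without a call is not shown to be closed. Replicate 3 of both groups was thresholded and scored differently from replicates 1 and 2, so the replicate number also marks a processing batch that holds both groups. A region inside Tek (chr4:94745330-94746933) was called in 0 Dek_cKO libraries but in 3 Dek_fl libraries with −log10 p of 231, 435 and 45.9, although the Cre driven by Tek control DNA belongs to the Dek_cKO genotype. At another Tek region −log10 p was 32.9, 20.5 and 8.59 in Dek_cKO and 260, 576 and 56.6 in Dek_fl libraries. The lists do not settle whether the labels are exchanged. Groups are named here as labelled, and an exchange would turn the sign of every difference below. The start region of Dek was called in all 6 libraries and does not check the genotype. Starts of stem cell markers were called for 9, 9 and 4 of 10 genes in Dek_cKO and 9, 10 and 2 in Dek_fl libraries. T cell starts were called for 1, 1 and 0 of 5 genes in each group, with Tcf7 the only 1 called. Erythroid starts were called for 3 of 5 genes in every library. Starts of plasmacytoid dendritic cell and macrophage genes were called for 5, 5 and 4 of 5 in Dek_cKO and 5, 5 and 3 in Dek_fl libraries. Granulocyte and monocyte starts were called for 3, 3 and 3 of 6 genes in Dek_cKO and 2, 3 and 0 in Dek_fl libraries. B cell starts were called for 3, 3 and 1 of 5 genes in Dek_cKO and 1, 3 and 0 in Dek_fl libraries. For these marker counts the share over all gene starts was not taken, and the lists differ in length between libraries. They are thus no result about the cells present or about a difference between the groups. The part of such cells in the results below was not tested.

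The interferon loci had accessible regions in both groups, and no member region called in all 6 libraries passed the test between Dek_cKO and Dek_fl. Of the 49 regions, 9 lay at a gene start (within 1 kb), 22 elsewhere in a gene and 18 in the flanks. Calls were made in 42, 45 and 25 of them in Dek_cKO and in 37, 47 and 24 in Dek_fl libraries, a mean of 37.3 ± 10.8 against 36.0 ± 11.5 (SD, n = 3 each). The low counts were both replicate 3 libraries, not 1 genotype. The share of member regions called was 85.7%, 91.8% and 51.0% in Dek_cKO and 75.5%, 95.9% and 49.0% in Dek_fl libraries. Over all regions of the series the shares were 82.7%, 84.0% and 31.3% in Dek_cKO and 60.0%, 83.8% and 27.5% in Dek_fl libraries. All 6 libraries called 21 member regions, where 23.3% of all regions were called in all 6. The start region was called in all 6 libraries for 8 of the 9 members, beside 52% of 17273 protein-coding genes. A region called in all 3 Dek_cKO and no Dek_fl library was found 0 times among the members (0.104% of all regions), and the opposite 0 times (0.00355%). Of the member regions, 8 were called in more Dek_cKO libraries (33.1% of all regions), 4 in more Dek_fl libraries (10.2%) and 37 in as many of each. Replicates 1 and 2 of both groups shared 36 member regions, beside 47491 of all 84592 regions. Of the 36, 12 were in neither replicate 3, whose lists called only 31.3% and 27.5% of all regions. The share of all regions lost in both replicate 3 lists, or called in 1 library, was not counted. The 4 regions called in 1 library were 2 in Irf2 (Dek_cKO replicate 2 and Dek_fl replicate 2), 1 in Ifnar2 (Dek_fl replicate 2) and 1 near Stat2 (Dek_cKO replicate 3).

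**Figure D1:**
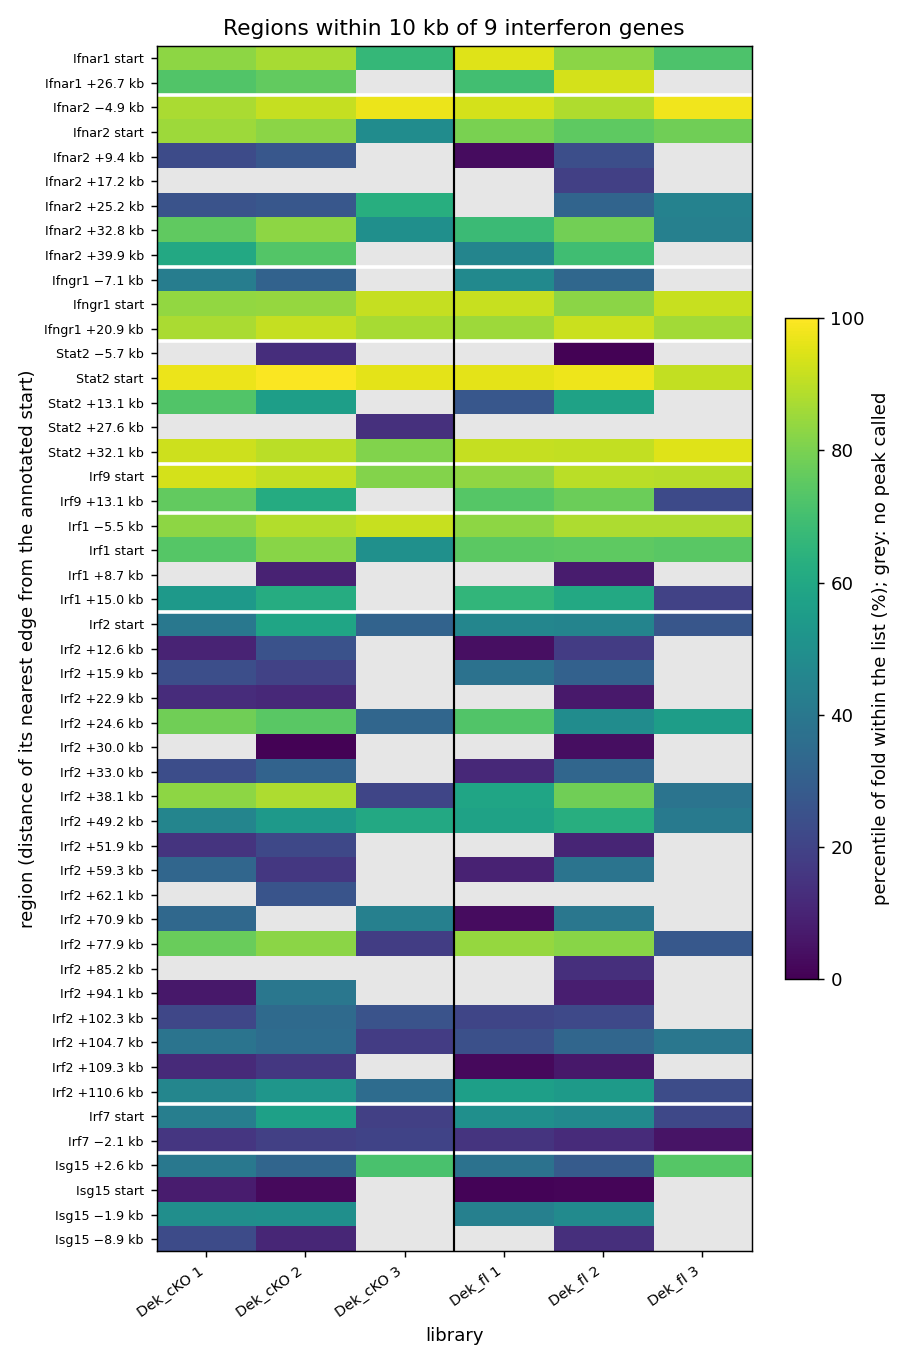
Percentile of fold over background within the library's own list (colour, %) for the 49 regions within 10 kb of the 9 genes, with 1 column per library and grey where no peak was called. Grey fields gather in both replicate 3 libraries, and 8 of the 9 start regions are coloured in all 6 columns.

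For the 21 regions called everywhere, the fold over background that the peak caller gave was ranked within each library over the 19683 regions shared by all 6, expressed as normal scores and fitted in limma. After Benjamini-Hochberg adjustment across the shared regions, 0 of 21 passed higher in Dek_cKO and 0 lower, where the background was 0% in each direction, and 0 had an unadjusted p under 0.05. Over all shared regions 68 were higher and 19 lower at an unadjusted p under 0.05. Together these are fewer than a threshold of 0.05 gives where no region differs, so the test was conservative. The rank scores of the groups did not overlap, with Dek_cKO above, in 0 member regions (2.1% of shared regions) and, with Dek_cKO below, in 0 (2.27%). The difference, Dek_cKO minus Dek_fl, was positive in 8 regions and negative in 13, with a median of -0.10 beside -0.018 over all shared regions. It lay between -0.35 and 0.33, and every adjusted p was 0.99996. The fit held no term for the processing batch, so its spread takes in the difference between replicate 3 and replicates 1 and 2. The 95% intervals below share this spread and are not the smallest difference the libraries could exclude. With the batch as a term in limma, 0 member regions passed higher and 0 lower, and 0 had an unadjusted p under 0.05.

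**Figure D2:**
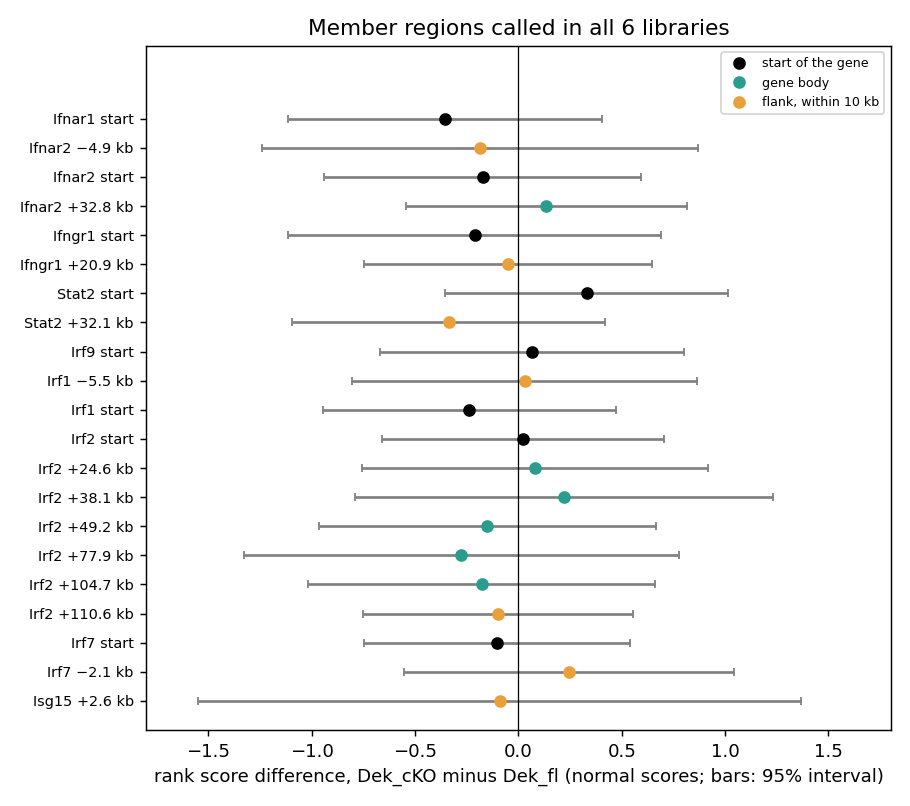
Difference in rank score (normal scores, Dek_cKO minus Dek_fl, x axis) for the 21 member regions called in all 6 libraries, with the 95% interval from limma as the bar and the kind of region by colour. Every interval crosses 0, and the points run from -0.35 at the Ifnar1 start to 0.33 at the Stat2 start.

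The receptor genes had well-marked starts. The start region of Ifnar1 (gene 15975, chr16:91484260-91485987), the receptor chain that binds Tyk2, had folds of 7.75, 8.90 and 9.89 in Dek_cKO and 8.29, 6.82 and 10.0 in Dek_fl libraries. As folds of separate lists are not on 1 scale, the percentile (the rank of the fold among the library's own peaks, in percent) was used beside them. The percentile also depends on the length and threshold of the list, which were different in replicate 3. It was 83.2, 87.0 and 66.7 in Dek_cKO and 95.2, 82.6 and 72.2 in Dek_fl libraries. The groups overlapped, with a rank score difference of -0.35 (SE 0.34, 95% interval -1.11 to 0.41). It was -0.37 within replicates 1 and 2 and -0.29 within replicate 3. Here and below, such values within replicates were ranked anew over the regions those libraries share. They are thus not parts of the pooled difference and need not average to it. The summit lay 167 bp before the annotated start in the median library, between -167 and 122 bp. A second Ifnar1 region, over the predicted gene Gm7856 1352 bp beyond its end (chr16:91511875-91513300), was called in replicates 1 and 2 of both groups and in neither replicate 3.

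Ifnar2 (gene 15976), the chain that binds Jak1, had start folds of 8.0, 8.28 and 8.17 in Dek_cKO and 6.26, 6.19 and 10.8 in Dek_fl libraries (chr16:91372368-91374518). This start region also overlapped the predicted gene Gm36587. Its percentiles were 85.4, 82.7 and 48.5 in Dek_cKO and 79.8, 75.1 and 78.1 in Dek_fl libraries, so Dek_cKO was above in replicates 1 and 2 and below in replicate 3. The rank score difference was -0.17 (SE 0.34, 95% interval -0.94 to 0.59), and 0.16 within replicates 1 and 2 against -1.0 within replicate 3. A region 4903 bp upstream (chr16:91366343-91367880), over the predicted gene Gm36587, ranked above the start in 6 of 6 libraries. Its folds were 8.26, 9.62 and 16.0 in Dek_cKO and 7.92, 7.42 and 15.5 in Dek_fl libraries. Its percentiles were 87.5, 91.2 and 97.1 in Dek_cKO and 93.4, 88.3 and 97.8 in Dek_fl libraries, a mean over the 6 libraries of 92.5 against 74.9 at the start itself. The groups overlapped there too, with a difference of -0.19 (SE 0.47). At the other end of Ifnar2 lay a region shared with the start of the neighbouring receptor gene Il10rb (chr16:91405565-91407698). The groups overlapped in it, with a difference of 0.14 (SE 0.30), which is less than its error.

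Ifngr1 (gene 15979), the ligand-binding chain of the interferon gamma receptor, had start folds of 7.82, 8.49 and 13.9 in Dek_cKO and 7.64, 6.81 and 13.2 in Dek_fl libraries (chr10:19591165-19592606). The percentiles were 84.0, 84.3 and 91.4 in Dek_cKO and 91.7, 82.5 and 91.6 in Dek_fl libraries, and the difference was -0.21 (SE 0.40, 95% interval -1.11 to 0.69). Within replicates 1 and 2 it was -0.27 and within replicate 3 -0.091. Replicate 3 of both groups was among the higher values here. A region 2663 bp beyond the end of the gene (chr10:19612892-19614629) had percentiles of 87.3, 91.0 and 86.7 in Dek_cKO and 85.5, 91.9 and 86.3 in Dek_fl libraries. It ranked above the start in 3 of 6 libraries, and its difference was -0.05 (SE 0.31).

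**Figure D3:**
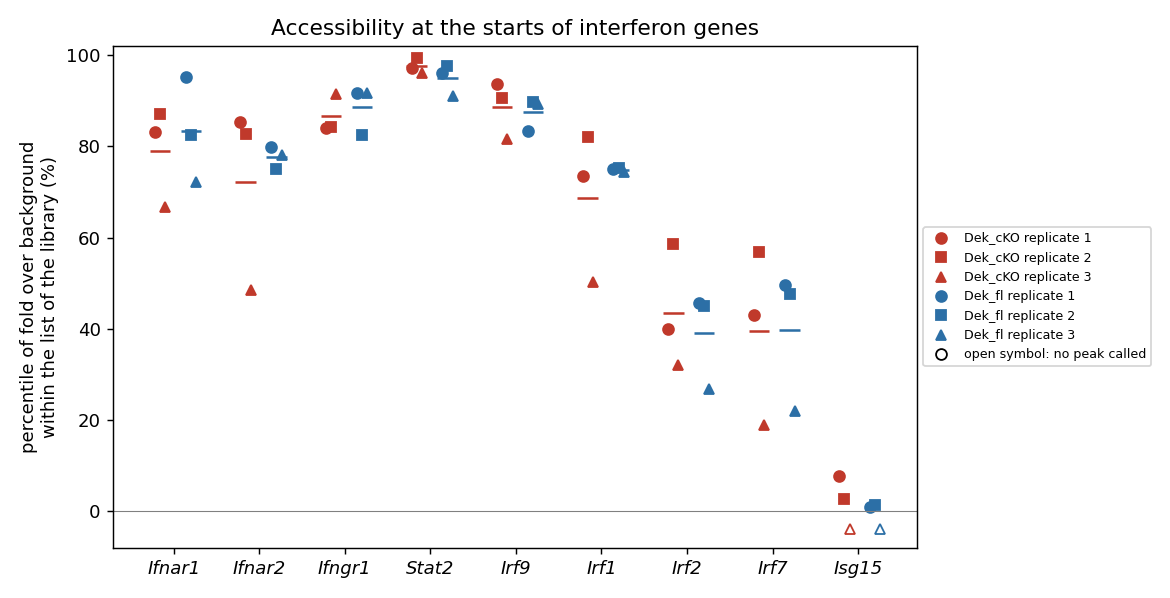
Percentile of fold within the library's own list (y axis, %) at the start region of each of the 9 genes, with 1 symbol per library, a bar at the group mean and open symbols below 0 where no peak was called. Stat2 lies between 91.0 and 99.3 and Isg15 at 7.78 or lower where called, and red Dek_cKO and blue Dek_fl symbols overlap in the 8 genes called in all 6 libraries.

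Among the signal transducers, Stat2 (gene 20847) had the start with the highest mean percentile of the 9 genes (chr10:128269936-128271098), although Ifngr1 was above it in Dek_fl replicate 3. This start region also overlapped Apof, and the signal cannot be divided between Apof and Stat2. Its folds were 10.2, 12.6 and 15.5 in Dek_cKO and 8.46, 9.15 and 13.0 in Dek_fl libraries. The percentiles were 97.1, 99.3 and 96.1 in Dek_cKO and 96.0, 97.6 and 91.0 in Dek_fl libraries. Dek_cKO was above Dek_fl in 3 of 3 comparisons of the same number, but the numbers are not shown to pair libraries. The groups overlapped, as Dek_cKO replicate 1 was below Dek_fl replicate 2. The difference of 0.33 was about the size of its error (SE 0.30, 95% interval -0.35 to 1.01, limma adjusted p 0.99996). It was 0.25 within replicates 1 and 2 and 0.37 within replicate 3. The ISRE core printed above lay inside the peak of every library but Dek_cKO replicate 3, with summits 172 to 280 bp away. Averaged over the 6 libraries, the percentile was 96.2, above 94.8% of the 8131 gene-start regions called in all libraries. A region 9795 bp beyond the end of Stat2, at the start of Pan2 (chr10:128302648-128304386), had percentiles of 92.5, 89.6 and 81.0 in Dek_cKO and 91.2, 90.6 and 95.1 in Dek_fl libraries, and a difference of -0.34 (SE 0.34). The starts of other genes most like Stat2 in percentile over the 6 libraries were R3hcc1l, Zfp964 and Nelfb, with mean absolute differences of 0.430, 0.761 and 0.864 percentile points.

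Irf9 (gene 16391), the DNA-binding subunit of the complex with Stat2, shared its start region with the end of Rnf31 (chr14:55603394-55605134), and the signal cannot be divided between them. Its folds were 9.23, 9.52 and 11.9 in Dek_cKO and 6.61, 7.57 and 12.6 in Dek_fl libraries, and its percentiles 93.6, 90.7 and 81.5 in Dek_cKO and 83.4, 89.6 and 89.3 in Dek_fl libraries. Dek_cKO was above in percentile in replicates 1 and 2 and below in replicate 3. The pooled rank score difference was 0.07 (SE 0.33, 95% interval -0.67 to 0.80). Ranked separately, the difference was 0.23 within replicates 1 and 2 and -0.46 within replicate 3. Near Irf9, a region over Rec8 and within 1 kb of its annotated start (chr14:55617657-55619345) was called in 5 libraries and missing from Dek_cKO replicate 3.

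Among the interferon regulatory factors, the start of Irf1 (gene 16362, chr11:53769411-53771499) had folds of 6.78, 8.21 and 8.33 in Dek_cKO and 5.86, 6.2 and 10.2 in Dek_fl libraries. Its percentiles were 73.4, 82.1 and 50.2 in Dek_cKO and 75, 75.2 and 74.3 in Dek_fl libraries, a wide range around a narrow one. The difference was -0.24 (SE 0.32, 95% interval -0.95 to 0.47). It was -0.82 within replicate 3 and -0.022 within replicates 1 and 2, each ranked separately. In the pooled ranking the scores were -0.19, 0.097 and -0.32 in Dek_cKO and -0.10, -0.10 and 0.50 in Dek_fl libraries. The GAS core lay inside the peak in all 6 libraries, with summits 15 to 90 bp away. A region 5517 bp upstream, over the microRNA gene Mir7671 (chr11:53762878-53764497), had folds of 7.73, 9.09 and 14 in Dek_cKO and 6.58, 7.34 and 12.3 in Dek_fl libraries. Its percentiles of 83.0, 88.3 and 91.8 in Dek_cKO and 83.0, 87.7 and 87.8 in Dek_fl libraries stood above those of the Irf1 start in 6 of 6 libraries, with means of 86.9 and 71.7. The groups differed there by 0.03 (SE 0.37). Irf1 and Ifnar2 were thus the 2 members with an upstream region that outranked the start in all 6 libraries, a pattern noticed after the values were seen.

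Irf2 (gene 16363, chr8:46739745-46847458), the antagonist of Irf1 at shared sites, held 20 of the 49 member regions. Its start region (chr8:46739255-46742013), which also covers Gm16675, was modest, with folds of 4.43, 5.91 and 6.87 in Dek_cKO and 4.20, 4.28 and 6.17 in Dek_fl libraries. The percentiles were 39.9, 58.6 and 31.9 in Dek_cKO and 45.7, 45.0 and 26.7 in Dek_fl libraries, and only 8.20% of the gene-start regions called everywhere ranked lower on average. The difference was 0.02 (SE 0.30, 95% interval -0.66 to 0.70), with -0.078 within replicates 1 and 2 and 0.044 within replicate 3. In Dek_fl replicate 3 the highest peak of the region was 1573 bp past the start, and the peak over the start itself had a percentile of 5.96 and a fold of 4.58. The ISRE and GAS cores lay inside the peak over the start in all 6 libraries.

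Many regions lay along Irf2. Including the start, 18 regions overlapped it and 6 of these were called in all 6 libraries. Among 1678 protein-coding genes of 80 to 150 kb, the median was 5 regions (upper quartile 8) and 1 region in all libraries (upper quartile 2). Fewer regions were found in 98.3% of those genes, and fewer regions called everywhere in 98.5%, a comparison chosen after the values were seen. Libraries called 17, 18 and 9 Irf2 regions in Dek_cKO and 14, 19 and 7 in Dek_fl. Both replicate 3 libraries had the fewest.

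Several body regions of Irf2 outranked its start. The region 24615 bp downstream of the start (chr8:46764360-46765601) had folds of 7.23, 7.35 and 6.98 in Dek_cKO and 5.69, 4.52 and 8.29 in Dek_fl libraries. Its percentiles of 78.3, 74.5 and 33.2 in Dek_cKO and 72.8, 48.8 and 55.5 in Dek_fl libraries were above the start in 6 of 6 libraries. The region 38099 bp downstream (chr8:46777844-46778884) had percentiles of 82.8, 87.8 and 20.9 in Dek_cKO and 58.7, 78.5 and 38.4 in Dek_fl libraries, and a difference of 0.22 (SE 0.45). The region 77933 bp downstream (chr8:46817678-46819755) had percentiles of 77.0, 82.6 and 18.2 in Dek_cKO and 84.0, 82.2 and 27.4 in Dek_fl libraries, and a difference of -0.28 (SE 0.47). Both of these stood high in replicates 1 and 2 and low in replicate 3 of each group, and each was above the start in 5 of 6 libraries. The remaining body regions in all libraries, 49241 and 104688 bp downstream, had differences of -0.15 (SE 0.36) and -0.18 (SE 0.37). Whether these regions lie in introns or exons was not known, since the annotation used gives gene ends only.

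**Figure D4:**
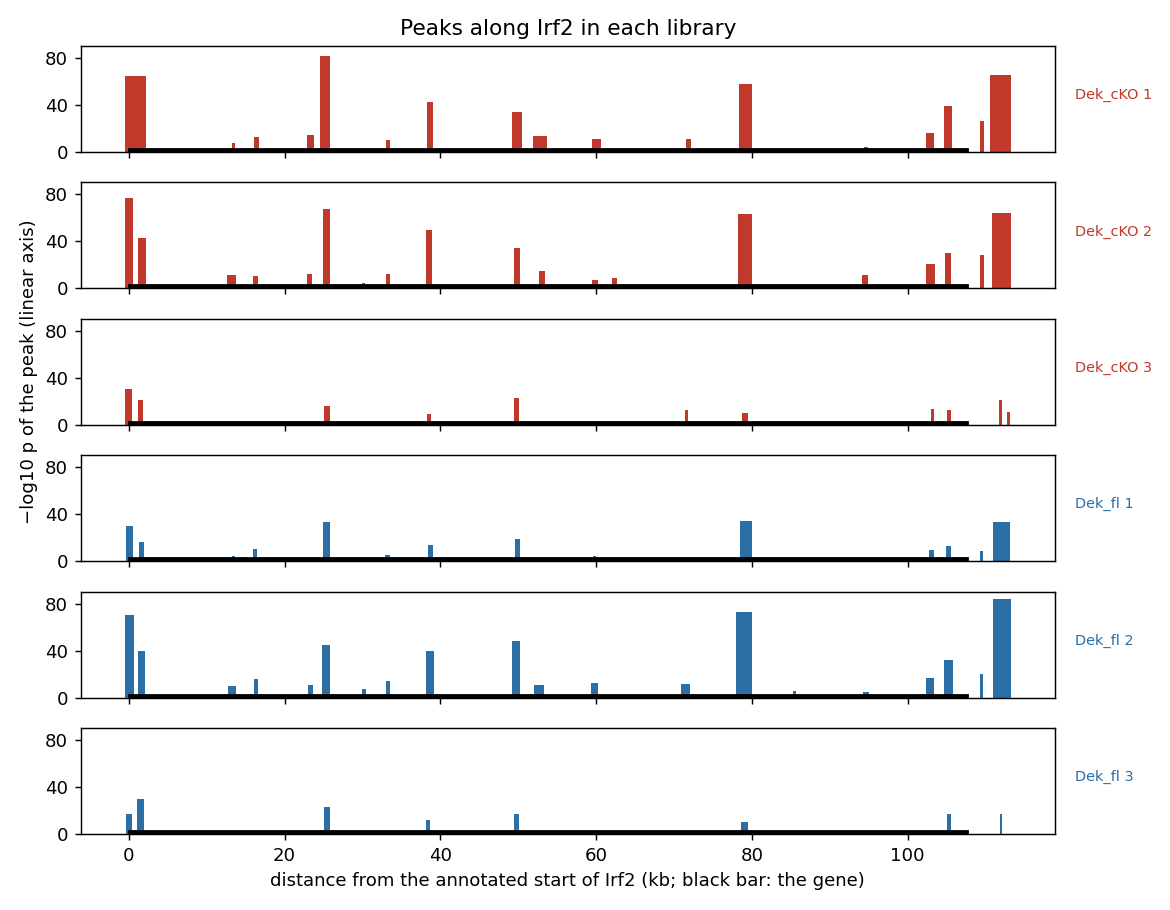
Peaks along Irf2 in each library, with distance from the annotated start (kb, x axis), −log10 p of the peak (y axis) and the gene as a black bar. Dek_cKO libraries are the upper 3 panels, which hold 17, 18 and 9 regions, and Dek_fl libraries the lower 3, which hold 14, 19 and 7.

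Irf7 (gene 54123), which amplifies type I interferon production, had a start region (chr7:141264691-141266749) with folds of 4.64, 5.79 and 5.95 in Dek_cKO and 4.38, 4.41 and 5.87 in Dek_fl libraries. The percentiles were 43.0, 56.9 and 18.9 in Dek_cKO and 49.7, 47.6 and 21.9 in Dek_fl libraries, above only 7.28% of gene-start regions on average. In replicate 3 the region held separate peaks: the highest was 1381 bp into the gene in Dek_cKO and near the start in Dek_fl, and the Dek_cKO peak nearest the start had a percentile of 1.32. The difference was -0.11 (SE 0.29, 95% interval -0.75 to 0.54), with -0.15 within replicates 1 and 2 and -0.20 within replicate 3. The region covers the first part of this short gene, and its peak summits lay between -5 and 1381 bp of the start. A weaker region 2084 bp upstream, over Cdhr5 (chr7:141268508-141269520), had percentiles of 15.9, 19.0 and 20.2 in Dek_cKO and 15.2, 12.1 and 5.29 in Dek_fl libraries. It was called in every library, and its difference was 0.25 (SE 0.35).

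Isg15 (gene 100038882, chr4:156199424-156200818) had the weakest start of the 9 genes and the only one that was not called in every library. Its region (chr4:156200773-156201256) was called in replicates 1 and 2 of both groups, with folds of 2.74 and 2.48 in Dek_cKO and 2.24 and 2.04 in Dek_fl, and in neither replicate 3. The percentiles were 7.78 and 2.63 in Dek_cKO and 0.963 and 1.38 in Dek_fl libraries, and −log10 p was 18.7 and 11.5 in Dek_cKO and 7.05 and 10.9 in Dek_fl. Both Dek_cKO values stood above both Dek_fl values, as they did in 13.7% of the 47491 regions called in these 4 libraries. With limma on those regions, the difference was 0.36 (SE 0.35, 95% interval -0.36 to 1.09, adjusted p 0.99997). All 3 ISRE cores printed above lay inside the peak of each of the 4 libraries, 16 to 52 bp from its summit. With a stricter limit of 10 on −log10 q the region was called in 1 library, Dek_cKO replicate 1, where −log10 q was 16.5, while the other 8 starts were called in all 6.

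Stronger regions flanked Isg15. One lay 1168 bp beyond its end, over Agrn and within 1 kb of an annotated start of Agrn (chr4:156196517-156198256). It had percentiles of 40, 32.6 and 71.4 in Dek_cKO and 37.9, 28.8 and 73.6 in Dek_fl libraries. The region joins 2 peaks in replicates 1 and 2, the higher of which was the one farther from Isg15 in Dek_cKO replicate 1 and the nearer one in the other 3, and replicate 3 had 1 peak with its summit between theirs. These values are thus not of 1 peak, and their difference was -0.09 (SE 0.65). Another lay 1903 bp upstream, over AW011738 and Perm1 and within 1 kb of an annotated start of AW011738 (chr4:156202721-156204385). It had percentiles of 49.6 and 49.8 in Dek_cKO and 43.5 and 47.9 in Dek_fl replicates 1 and 2 and was in neither replicate 3.

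The order of the starts by mean percentile over the 6 libraries was Stat2 at 96.2, Irf9 at 88.0, Ifngr1 at 87.6, Ifnar1 at 81.2, Ifnar2 at 74.9, Irf1 at 71.7, Irf2 at 41.3 and Irf7 at 39.6, with Isg15 below. The middle one of all gene-start regions called everywhere was at 78.6, with quartiles at 62.1 and 89.1. The ranges over the libraries overlapped between all neighbours in this order from Stat2 down to Irf7. The highest percentile of Irf2 (58.6) or Irf7 (56.9) in any library was below the lowest of Stat2, Irf9, Ifngr1 and Ifnar1 (66.7).

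Among 65 other genes of the pathway, no start passed the test either. All 65 matched the annotation, 45 had a start region called in all 6 libraries, 18 in some and 2, Ifit3 and Rtp4, in none. Of 17273 protein-coding genes, 52% had a start region called in all 6. With limma 0 of the 45 passed in either direction, 0 had an unadjusted p under 0.05, and the median difference was 0.06 beside -0.018 over all shared regions. No gene was called in at least 2 more libraries of one group than of the other. Starts were called for 63, 60 and 47 genes in Dek_cKO and 59, 62 and 50 in Dek_fl libraries. For these counts and for the gap of 2 libraries, the share over all gene starts was not taken. They are thus no result about the pathway. By role, 10 of 12 receptor, kinase and feedback genes, 4 of 5 interferon regulatory factors, 9 of 13 nucleic acid sensing genes and 22 of 33 stimulated effectors were called in all 6 libraries. The ligand genes Ifnb1 and Ifng each had a call in Dek_cKO replicate 1 and Dek_fl replicate 2 only. Calls in replicates 1 and 2 of both groups and in neither replicate 3, as at Isg15, were found for 9 of the 65 genes (7.29% of protein-coding genes). These were the effectors Oas1a, Oas2, Oas3, Ifi44 and Ifitm3, with Irf5, Ifnlr1, Ikbke and Tlr7.

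The 3 genes with the smallest p in each direction are named here. Among those lower in rank score in Dek_cKO, Ifit2, an RNA-binding antiviral protein, had percentiles of 98.0, 94.0 and 80.7 in Dek_cKO and 95.9, 98.2 and 99.2 in Dek_fl libraries, a difference of -0.71 (SE 0.39, limma p 0.103, adjusted p 0.99996). Ifi35 and the ubiquitin ligase gene Herc6 had differences of -0.58 (SE 0.35) and -0.53 (SE 0.32). Among those higher, Gbp3, an interferon-inducible GTPase, had percentiles of 92.8, 95 and 95.7 in Dek_cKO and 92.1, 91.6 and 73.2 in Dek_fl libraries, a difference of 0.46 (SE 0.32). Zbp1, a nucleic acid sensor, and Mavs, the adaptor of cytosolic RNA sensing, had differences of 0.49 (SE 0.34) and 0.34 (SE 0.32). None of these 6 passed the adjusted threshold in either direction.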

How the data were processed

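ATAC-seq peak lists of 6 libraries were used, 1 per library, called separately per library. The submitters' processing notes name Bowtie2, MACS2, Picard and the build mm10. Versions, settings and any Tn5 shift were not given in the sources used here, and depth per library is unknown. Each deposited row holds the authors' peak interval, score, fold over background (a ratio), −log10 p, −log10 q and summit position. The deposited score equalled 10 times −log10 q in replicates 1 and 2 and 10 times −log10 p in replicate 3 of both groups, and the lowest −log10 p in replicate 3 was 5.02 in Dek_cKO and 5.07 in Dek_fl. Different thresholds and separate background models make folds of different lists not directly comparable, so ranks within a list were used. A percentile in turn depends on the length and threshold of its list. Percentiles of replicate 3 are therefore not on the same scale as those of replicates 1 and 2. All these values are the authors' own.

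Peaks sharing at least 1 bp were merged across libraries, and a region took the highest value of its peaks in a library. Gene positions came from the RefSeq table of GRCm38.p6, and starts and strand from its start windows. Regions called in all 6 libraries were compared with limma 3.58.1 in R 4.3.3 on normal scores of within-library fold ranks, Dek_cKO against Dek_fl, with Benjamini-Hochberg adjustment over all of them and a threshold of 0.05. The fit was tested on simulated data with independent noise per library and no batch, so that test does not cover the batch seen here. Deviations from the group means correlated by 0.27, 0.52 and 0.74 between same-numbered libraries, but also by 0.57 between Dek_cKO 1 and Dek_fl 2 and 0.31 between Dek_cKO 2 and Dek_fl 1, so they separate replicate 3 from replicates 1 and 2 rather than each number. The replicate block was used as an alternative only. All 9 members were named, and from the 65 other pathway genes the 3 smallest limma p per direction and any start called in 2 or more libraries more in one group. Some items are not reported here. The members and lists were chosen with earlier results of these data known. Alternatives covered merging, thresholds, list length, the ranked value, the replicate block, the processing batch as a term and left-out libraries.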

Additional observations from a re-analysis of the deposited data

How the results depend on the processing

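Under 18 alternatives, 112 start differences were recomputed, of which 100 kept their sign and 12 reversed. Of the 104 that could be tested, 0 passed the threshold, with a lowest adjusted p of 0.975. The signs of Stat2, Ifnar1, Irf1 and Irf7 held in all 14 settings that gave a value, but their sizes moved with libraries left out: Stat2 from 0.16 (without Dek_cKO 2) to 0.47, Ifnar1 from -0.55 (without Dek_fl 2) to -0.071 (without Dek_fl 1), Irf1 from -0.35 to -0.021 (without Dek_fl 3) and Irf7 from -0.22 (without Dek_cKO 2) to -0.046 (without Dek_cKO 1). Irf9 was -0.0045 with ranks of −log10 p and -0.46 in replicate 3 alone. In replicates 1 and 2 alone Irf2 was -0.078 and Ifnar2 0.16. Leaving out each library in turn gave -0.11 to 0.20 for Irf2, -0.13 to 0.29 for Irf9, -0.33 to 0.057 for Ifnar2 and -0.53 to 0.043 for Ifngr1. The sign turned without Dek_cKO replicate 2 or 3 or Dek_fl replicate 2 for Irf2, without Dek_cKO or Dek_fl replicate 1 for Irf9, without replicate 3 of either group for Ifnar2, and without Dek_fl replicate 3 for Ifngr1. In replicate 3 alone, which sets 1 library against 1, 3 member regions were called in Dek_cKO only and 2 in Dek_fl only. The share of all regions with such calls was not counted, so these counts are no result about the members. The cause of the shifts in sign, size and calls was not tested. The difference in called member regions, 1.33 more in Dek_cKO, was -0.667 in equally long lists and -4.67 to 7.5 with libraries left out. The fit with a replicate block changed no call: 0 member regions were higher and 0 lower, with a lowest adjusted p of 0.99988. Depth is unknown, which limits what a missing call shows.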
